A study of Mus musculus with 9 samples.

Results

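Sox10, Fabp7, S100b, Frzb and Npy, 5 genes used to mark olfactory ensheathing glia, were read out by RNA-seq in the main olfactory epithelium (MOE) of mice with and without TAAR enhancer 1. The genes were chosen by name as marks of the glia that wrap olfactory axon bundles, not by any measured value, and all 5 were found among the 24421 genes of the count table. TAAR enhancer 1 is a stretch of the trace amine-associated receptor (Taar) gene cluster on chromosome 10 that was removed with CRISPR-Cas9 in fertilized eggs, and all carriers descend from 1 established line. Whole MOE of 3 wild-type (WT), 3 heterozygous (TAAR enhancer 1 +/-) and 3 homozygous (TAAR enhancer 1 -/-) mice was profiled, with 1 library per mouse, and the labels name no other allele and no treatment. The labels give strain C57BL/6 and postnatal day 14 for all 9 mice, whereas the animal summary of the study gives a mixed background and an older age for this line, with both sexes used. The deletion is present in every cell of the carriers. In bulk tissue, fewer cells of a type and less RNA per cell cannot be told apart.

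Olfactory ensheathing glia arise from the neural crest and enclose the fine axons of olfactory sensory neurons (OSNs) in the lamina propria and along the olfactory nerve into the outer layer of the olfactory bulb. OSNs are replaced throughout life, and these glia are known for the permissive channels through which newly grown axons reach the bulb. Sox10 is the transcription factor that neural crest glia require, Fabp7 (brain lipid-binding protein) carries fatty acids in immature and radial glia, S100b is a calcium-binding protein of glia, Frzb is a secreted protein that binds Wnt ligands, and Npy is the secreted neuropeptide Y. None of these genes is exclusive to ensheathing glia: Sox10 also marks Schwann cells, melanocytes and glands, S100b and Frzb are also made in cartilage, and Npy is also made by microvillous cells of the epithelium.

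The libraries held 24583906 to 32631951 reads in genes, and 3 reads corresponded to 0.0916 to 0.122 CPM (counts scaled to library size). Taar2, Taar3 and Taar5, receptor genes next to the deleted enhancer, had together 162 to 255 reads in the wild-type, 117 to 139 in the heterozygous and 0 to 1 in the homozygous libraries, in the order of the labels. Vomeronasal receptor genes, which belong to the neighbouring vomeronasal organ, had a summed level of 14.6 to 17.3 CPM in most libraries. The 3 exceptions were heterozygous mouse 1 with 68.1, homozygous mouse 2 with 120 and homozygous mouse 3 with 69.5 CPM. Estimates for single glia genes that turn direction without these 3 libraries are given both ways. Without them 3 wild-type, 2 heterozygous and 1 homozygous mouse remain, so that each such homozygous estimate rests on homozygous mouse 1 alone, with the spread taken from the other groups. Omp, the marker of mature OSNs, averaged 3233 CPM in the tissue labelled MOE.

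Fabp7 and S100b lie on chromosome 10, as the Taar cluster does, but 33.85 Mb and 52.32 Mb from Taar2. In GRCm38 with GENCODE M21 annotation, Sox10 spans chr15:79154908-79165240 on the minus strand, Fabp7 chr10:57784881-57788450 on the plus strand and S100b chr10:76253853-76261159 on the plus strand. Frzb spans chr2:80411970-80447625 on the minus strand and Npy chr6:49822710-49829507 on the plus strand. The merged exons of Sox10, Fabp7, S100b, Frzb and Npy cover 3051, 1250, 1484, 3237 and 566 bases. S100b overlaps the span of Dip2a on the opposite strand, but no exonic base of the 5 genes is shared with an exon of another gene.

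RefSeq start regions on GRCm38.p6 were held for 4 of the 5 genes, and Sox10 was not among them. The stretches upstream of Fabp7, S100b and Npy are shown as examples. Fabp7 and S100b correlated positively over the libraries without passing adjustment, and Npy did not join them (values with the correlations). Frzb, on the minus strand, is not shown, although its r with Fabp7 was higher (0.68). The printed stretches run up to the first annotated base or close to it on the plus strand, at chr10:57784673-57784880 for Fabp7, chr10:76253586-76253835 for S100b and chr6:49822460-49822709 for Npy. Capitals mark matches to the CCAAT box (CCAAT, or ATTGG on the other strand) and to the GC box (GGGCGG).
Fabp7: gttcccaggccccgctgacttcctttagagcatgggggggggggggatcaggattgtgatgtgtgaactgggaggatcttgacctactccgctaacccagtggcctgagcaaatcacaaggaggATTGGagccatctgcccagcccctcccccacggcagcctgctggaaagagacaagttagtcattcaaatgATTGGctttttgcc
S100b: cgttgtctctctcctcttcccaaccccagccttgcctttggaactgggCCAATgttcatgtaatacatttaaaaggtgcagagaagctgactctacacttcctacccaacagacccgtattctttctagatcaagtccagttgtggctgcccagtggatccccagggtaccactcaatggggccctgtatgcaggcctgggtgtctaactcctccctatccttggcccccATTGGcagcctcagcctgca
Npy: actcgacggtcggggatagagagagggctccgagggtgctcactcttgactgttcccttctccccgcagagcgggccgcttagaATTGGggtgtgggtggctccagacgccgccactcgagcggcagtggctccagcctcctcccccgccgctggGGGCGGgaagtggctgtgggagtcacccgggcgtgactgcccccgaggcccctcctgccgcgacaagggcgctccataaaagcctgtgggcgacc

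In these stretches Fabp7 and S100b each held 2 CCAAT box matches, and Npy held 1 together with a GC box. The stretch of Fabp7 has 208 bases and the others 250, and the share of windows with 2 matches was not counted. A CCAAT box match on either strand was present in 33.8% of 32851 windows of 250 bases upstream of mouse genes, and a GC box match in 32.7%, with Frzb and Npy among them. The 4 short SOX elements searched on both strands were AACAAA (in 18.0% of windows), AACAAT (in 9.42%), TACAAA (in 10.6%) and TACAAT (in 6.35%), and 35.0% of windows held at least 1 of them. The windows of the 4 genes held 0 of them, and 0 held a TATA box (TATAAA on either strand, in 12.4% of windows). These matches describe letters in short windows only.

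The 5 genes were expressed at levels far apart. Per kilobase of merged exon, the mean level over the 9 libraries was 113 CPM per kb for Fabp7, 19.9 for S100b, 13.4 for Sox10, 7.43 for Npy and 4.23 for Frzb. Fabp7 was 5.69 times the level of S100b on this scale, and the other steps in the order were 1.49, 1.80 and 1.76 times. The libraries of neighbours in this order did not overlap, the closest values being 5.81 CPM per kb in the lowest library of Npy and 5.37 in the highest of Frzb.

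**Figure D1:**
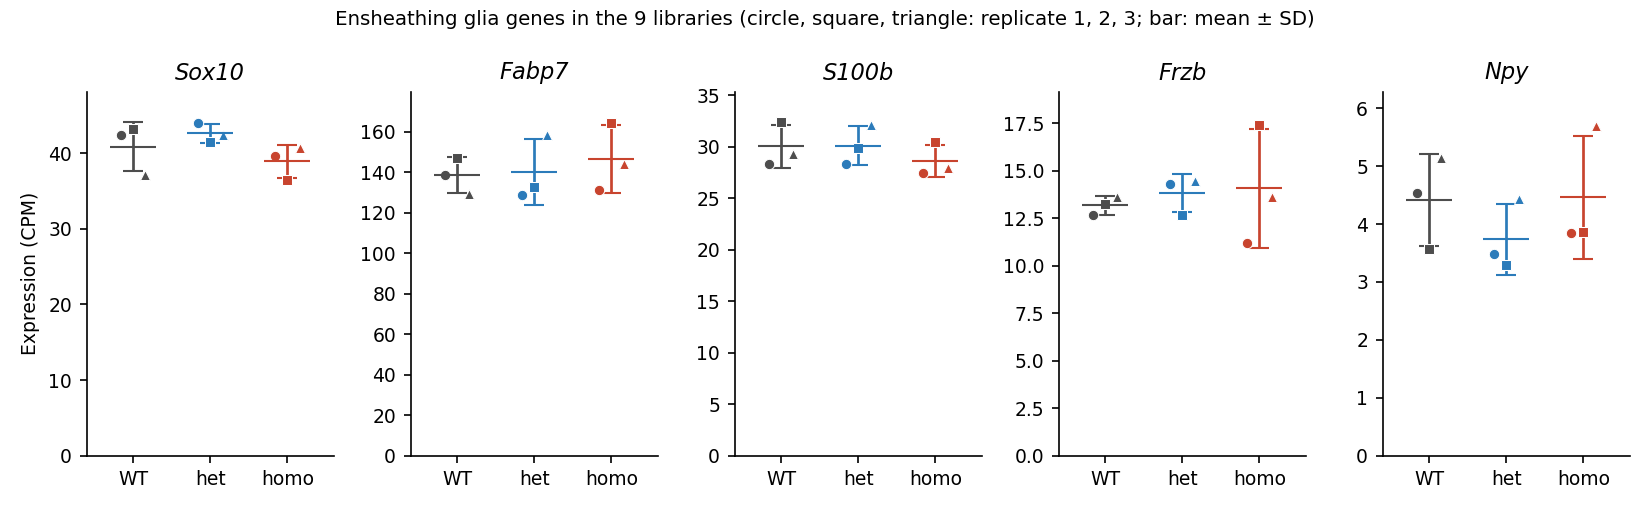
Expression of the 5 ensheathing glia genes in CPM (vertical axes, each starting at 0) in the 3 genotypes, with 1 point per library and bars for mean ± SD (n = 3 mice). The homozygous and heterozygous points of Sox10 do not overlap, whereas all other pairs of groups overlap, and the homozygous points of Frzb spread from 11.2 to 17.4 CPM.

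Sox10, the regulator of the glial lineage, varied least within a genotype among the 5 genes. It measured 42.4, 43.2 and 37.1 CPM in the wild-type, 44.0, 41.5 and 42.4 CPM in the heterozygous and 39.6, 36.5 and 40.7 CPM in the homozygous libraries. The 3 homozygous libraries lay below the 3 heterozygous ones, while the wild-type libraries spanned most of the range of both. The log2 fold change of homozygous against heterozygous mice was -0.13 ± 0.07 (SE), a difference of -8.68% with a 95% confidence interval from -17.1% to 0.560%, and it did not pass the test (edgeR, adjusted p = 0.514). Against wild type, the log2 fold change was -0.07 ± 0.07 in homozygous mice (edgeR, adjusted p = 0.798) and 0.06 ± 0.06 in heterozygous mice (edgeR, adjusted p = 1.00).

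Fabp7, the lipid-binding protein, had the most reads of the 5 genes, 3349 to 4820 per library. Its level was 139, 147 and 129 CPM in wild-type, 129, 133 and 159 CPM in heterozygous and 131, 164 and 144 CPM in homozygous mice. Homozygous replicate 2 was the highest library and heterozygous replicate 1 the lowest, and each pair of genotypes overlapped. The homozygous to wild-type log2 fold change was 0.08 ± 0.08 (edgeR, adjusted p = 0.827), with a 95% interval from -6.48% to 19.5%. Without the 3 libraries rich in vomeronasal receptor reads, which leaves 1 homozygous mouse, the estimate was -0.08, and without homozygous replicate 2 alone it was -0.0072. The heterozygous to wild-type log2 fold change was 0.02 ± 0.08, and the homozygous to heterozygous one was 0.06 ± 0.08, which became -0.15 without those 3 libraries.

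S100b, the calcium-binding protein, varied little. It stood at 28.3, 32.4 and 29.3 CPM in wild-type, 28.3, 29.9 and 32.1 CPM in heterozygous and 27.4, 30.4 and 27.9 CPM in homozygous libraries. All 3 genotypes overlapped, with the lowest and the highest library only 1.18 times apart. The heterozygous and wild-type means were 30.1 ± 1.90 and 30.0 ± 2.13 CPM (SD, n = 3). The log2 fold change was -0.07 ± 0.07 in homozygous against wild-type mice (edgeR, adjusted p = 0.818), where the 95% interval ran from -14.6% to 5.84%, and -0.07 ± 0.07 against heterozygous mice (edgeR, adjusted p = 0.775).

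Frzb and Npy encode the secreted proteins of the group and were the more scattered genes. Frzb measured 12.6, 13.3 and 13.6 CPM in wild-type, 14.3, 12.7 and 14.5 CPM in heterozygous and 11.2, 17.4 and 13.6 CPM in homozygous libraries. The lowest and the highest of the 9 values were both homozygous, and the groups overlapped. The homozygous to wild-type log2 fold change was 0.09 ± 0.13 (edgeR, adjusted p = 0.890), with a 95% interval from -12.0% to 28.7%. It was -0.18 with vomeronasal receptor expression as a covariate and -0.24 without the 3 libraries rich in vomeronasal receptor reads, neither past the threshold. The latter rests on homozygous replicate 1, the lowest of the 9 libraries for Frzb, as the only homozygous mouse. Against heterozygous mice the log2 fold change was 0.02 ± 0.13, and -0.28 without those 3 libraries. Homozygous replicate 2, the highest library for Frzb, also held the most vomeronasal receptor reads.

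Npy measured 4.54, 3.57 and 5.14 CPM in wild-type, 3.49, 3.29 and 4.43 CPM in heterozygous and 3.84, 3.86 and 5.69 CPM in homozygous libraries, from 87 to 147 reads each. The highest library of each genotype was replicate 3, and the genotypes overlapped. The heterozygous mean was the lowest, with a log2 fold change of -0.23 ± 0.19 against wild type (edgeR, adjusted p = 1.00) and a 95% interval from -35.6% to 12.9%. Homozygous mice differed from wild type by 0.02 ± 0.19 and from heterozygous mice by 0.25 ± 0.19 (edgeR, adjusted p = 0.700), the latter with an interval from -10.2% to 57.8%. The latter estimate was 0.04 without homozygous replicate 3. Without the 3 libraries rich in vomeronasal receptor reads, with 1 homozygous mouse left, the 2 estimates were -0.20 and -0.01.

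In all, 0 of the 5 ensheathing glia genes passed an adjusted p of 0.05 between homozygous and wild-type mice, a call that 0.0495% of the 20213 genes tested received (edgeR, Benjamini-Hochberg adjustment over all genes). The calls were likewise 0 of 5 between heterozygous and wild-type mice, where 0.00495% of all genes were called, and 0 of 5 between homozygous and heterozygous mice, where 0.114% were. In the test for any difference among the 3 genotypes the count was 0 of 5 against 0.0643% of all genes, with the lowest adjusted p, 0.734, for Sox10. At an unadjusted p under 0.05 the counts were again 0 of 5 in each comparison, beside 9.26% of all genes for homozygous against wild type, 3.25% for heterozygous against wild type, 10.4% for homozygous against heterozygous and 8.45% for any difference. DESeq2 called 0 of the 5 genes in each comparison as well, with 3 adjusted p-values left NA by its default filter.

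The values of the groups did not overlap for 0 of the 5 genes in homozygous against wild-type mice, beside 15.4% of all genes, and for 0 of 5 in heterozygous against wild-type mice, beside 8.68%. Between homozygous and heterozygous mice they did not overlap for 1 gene, Sox10, which was lower in homozygous mice. That pattern was present in 14.1% of all genes in either direction and in 7.67% in this direction. The median log2 fold change of the 5 genes was 0.02 for homozygous against wild type, 0.02 for heterozygous against wild type and 0.02 for homozygous against heterozygous, and the medians of all genes were -0.00057, 0.0033 and -0.0017.

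**Figure D2:**
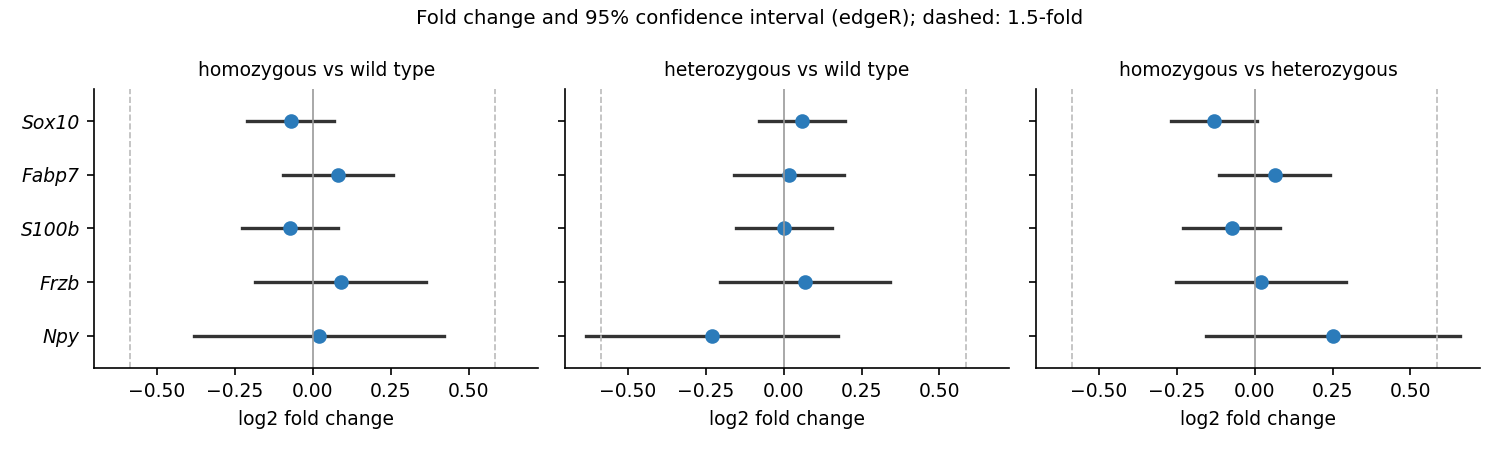
log2 fold change (horizontal axis) of each ensheathing glia gene in the 3 pairs of genotypes, with points for the edgeR estimate and lines for its 95% confidence interval, and dashed lines at a 1.5-fold difference. All 15 intervals include 0, and 13 of them lie within the dashed lines, the exceptions being Npy in both comparisons with heterozygous mice.

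The intervals cover the spread between mice under the fitted model, not the choice of libraries. For Sox10, Fabp7, S100b and Frzb, all 12 intervals lay between 0.829-fold and 1.29-fold, within a 1.5-fold difference in either direction. For Npy, with far fewer reads, 1 of the 3 intervals did. Of 270 estimates refitted with other processing, 3 lay outside their interval, all without the 3 libraries rich in vomeronasal receptor reads. They were Fabp7 in homozygous against heterozygous mice (-0.15, below a lower limit of -0.11) and Frzb in homozygous against heterozygous (-0.28, below -0.25) and wild-type mice (-0.24, below -0.18).

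The genes also differed in how much they varied between mice of 1 genotype. The SD of log2 CPM within a genotype was 0.087 for Sox10 and 0.091 for S100b, near the median of 0.094 over the 16167 genes with a mean of at least 1 CPM. It was 0.14 for Fabp7, 0.20 for Frzb and 0.27 for Npy, above the values of 71.2%, 82.0% and 90.8% of those genes. Counting error alone would give 0.023 for Fabp7, 0.075 for Frzb and 0.13 for Npy. The measured spread exceeded counting error for all 5 genes.

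Of 9 other genes known from ensheathing glia and related neural crest glia, 0 were called in any pair of genotypes by edgeR or DESeq2, and at an unadjusted p under 0.05 in edgeR the counts were 1 for homozygous against wild type, 0 for heterozygous against wild type and 2 for homozygous against heterozygous, beside 9.26%, 3.25% and 10.4% of all genes. The 9 genes were Erbb3 (a neuregulin receptor that Sox10 is known to activate), Ngfr (the low-affinity neurotrophin receptor p75), Cdh19 (a glial cadherin), Foxd3 (a neural crest transcription factor), Apod (a lipid carrier), Gfap (an intermediate filament of glia), Ttyh1 (a membrane protein of neural cells), Mybpc1 and Prss56. In homozygous against wild-type mice 4 had a positive and 5 a negative estimate with a median log2 fold change of -0.02. In heterozygous against wild-type mice 7 were positive and 2 negative with a median of 0.07. In homozygous against heterozygous mice 2 were positive and 7 negative with a median of -0.09. Without the 3 libraries rich in vomeronasal receptor reads, 3 were positive and 6 negative against wild type with a median of -0.12, and 3 and 6 against heterozygous mice with a median of -0.13.

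Erbb3 came nearest to a call. It measured 82.2, 87.6 and 82.9 CPM in wild-type, 90.2, 84.0 and 82.2 CPM in heterozygous and 77.4, 72.9 and 75.1 CPM in homozygous libraries. All 3 homozygous libraries were below the other 6. Homozygous values did not overlap for 15.4% of all genes against wild type and 14.1% against heterozygous mice, in either direction. The share of genes below both groups was not counted. The log2 fold change was -0.17 ± 0.05 against wild type (edgeR, adjusted p = 0.343) and -0.19 ± 0.05 against heterozygous mice (edgeR, adjusted p = 0.192). In DESeq2 with default settings the adjusted p was 0.176 and 0.0812. Against heterozygous mice it was 0.0759 in edgeR without heterozygous replicate 3. Without the 3 libraries rich in vomeronasal receptor reads the log2 fold changes were -0.12 and -0.10. Cdh19 was at 13.5, 13.9 and 13.7 CPM in the homozygous and 17.0, 17.2 and 15.4 CPM in the heterozygous libraries, which did not overlap, and its log2 fold change was -0.27 ± 0.10 (edgeR, adjusted p = 0.343). Against wild type, at 14.9, 17.0 and 13.2 CPM, the homozygous values of Cdh19 overlapped and the log2 fold change was -0.14 ± 0.10.

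The remaining genes of this list had small or loosely estimated differences. The log2 fold changes of homozygous against wild-type mice were -0.03 for Apod, -0.02 for Mybpc1, 0.04 for Ttyh1, -0.10 for Ngfr, 0.22 for Foxd3, 0.08 for Gfap and 0.12 for Prss56, all with an adjusted p (edgeR) over 0.05. Of these 7 estimates 5 turned direction without the 3 libraries rich in vomeronasal receptor reads, to 0.11 for Apod, 0.09 for Mybpc1, -0.16 for Ttyh1, -0.03 for Foxd3 and -0.25 for Gfap, with 1 homozygous mouse left. Per kilobase, Apod (107 CPM per kb) overlapped Fabp7 in its range, Erbb3 (13.6) stood near Sox10, and Ngfr (1.67), Gfap (0.716) and Prss56 (0.407) were lowest. Exons of Ttyh1, Mybpc1 and Foxd3 share 424, 252 and 89 bases with exons of other genes. These other genes lie on the opposite strand for Ttyh1 and Mybpc1 and on the same strand for Foxd3. The strand setting of the counting is not known, so that the counts may be less certain.

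**Figure D3:**
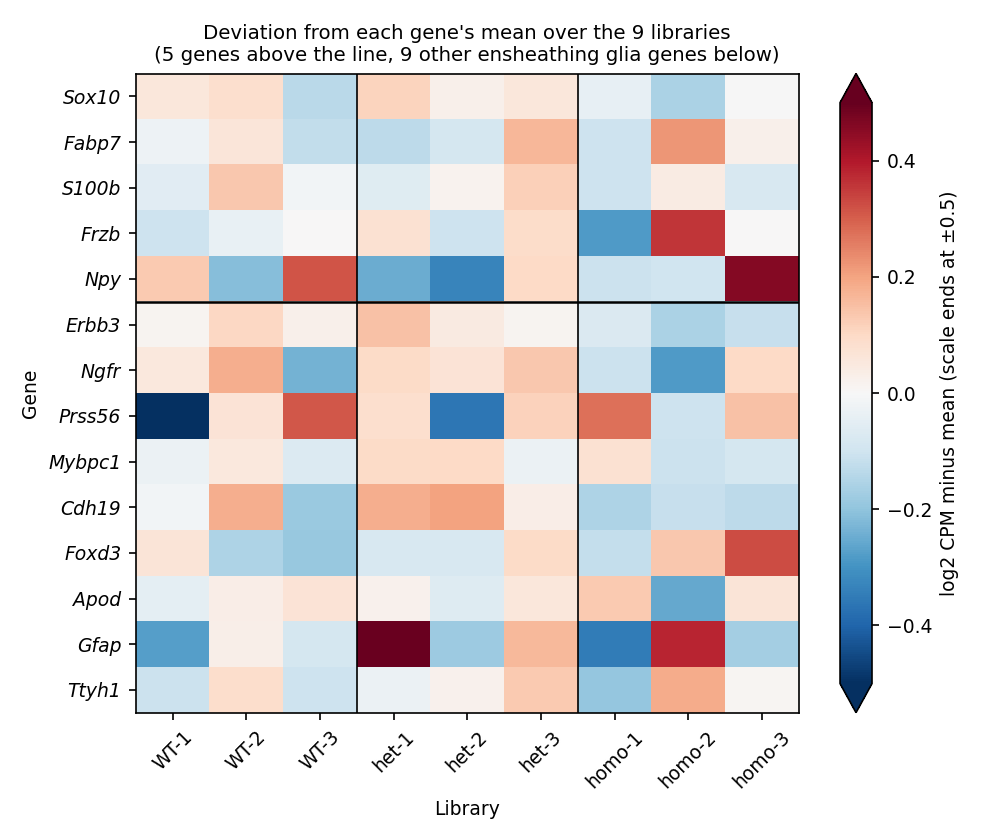
Deviation of log2 CPM from the mean over the 9 libraries (colour) for the 5 ensheathing glia genes (above the line) and 9 other glia genes (below), with 1 column per library. Homozygous replicate 2 is high in Fabp7, Frzb, Gfap and Ttyh1 but low in Sox10, Erbb3, Ngfr and Apod, and Erbb3 and Cdh19 are below their means in all 3 homozygous libraries.

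Over all 9 libraries the relations among the glia genes were mixed in sign, and none passed adjustment. Among the 10 pairs of the 5 genes, Pearson's r of log2 CPM over the 9 libraries was positive for 6 and negative for 4, from -0.33 for Sox10 and Frzb to 0.68 for Fabp7 and Frzb. Of 55 relations tested (these 10 pairs and each of the 5 genes with the 9 other glia genes), 0 had an adjusted p under 0.05 and 10 had an unadjusted one, by the exact permutation test. The 9 libraries share their genotype structure, and values from 1 library share its depth and dissection. In the 6 libraries with little vomeronasal receptor expression (3 wild-type, 2 heterozygous and 1 homozygous), each r rested on 6 points. There r of Sox10 was 0.71 instead of -0.18 with Fabp7 and 0.52 instead of 0.12 with S100b. It was 0.78 instead of 0.63 for Fabp7 with S100b. Frzb had 0.17 instead of -0.33 with Sox10, 0.64 instead of 0.68 with Fabp7 and 0.78 instead of 0.42 with S100b. Npy had -0.51 instead of -0.31 with Sox10 and -0.0055 instead of 0.088 with Fabp7. With S100b and Frzb it had -0.18 instead of -0.26 and 0.39 instead of 0.040. Without the 2 libraries farthest in Sox10, r of Sox10 with Fabp7 was 0.14, so its sign depended on the libraries left in.

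The highest of the 55 was Sox10 with Ngfr, r = 0.94 and rho = 0.80, with 9 libraries, an exact permutation p of 0.000923 and an adjusted p of 0.0508. Without the 2 libraries farthest in Sox10 it was 0.73, and without the genotype means 0.92. Only 0.0371% of the genes compared had a higher r with Sox10 than Ngfr did. Sox10 also had r = 0.77 and rho = 0.73 with Cdh19 (exact permutation p = 0.0164, adjusted p = 0.165) and r = 0.70 and rho = 0.72 with Erbb3 (exact permutation p = 0.0371, adjusted p = 0.214). Without the 2 farthest libraries these r were 0.77 and 0.89. Once genotype means were removed they were 0.60 for Cdh19 and 0.55 for Erbb3. In the 6 libraries with little vomeronasal receptor expression they were 0.79 and 0.42.

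Fabp7, S100b and Frzb had high values of r with Ttyh1. Their r with Ttyh1 was 0.84, 0.76 and 0.80 and their rho 0.77, 0.78 and 0.73, each with an adjusted p above 0.05 by the exact permutation test. Without the 2 farthest libraries r was 0.60 and 0.74 for Fabp7 and S100b and fell to 0.37 for Frzb. For Frzb with Ttyh1 it was 0.80 once genotype means were removed and 0.76 in the 6 libraries with little vomeronasal receptor expression. Fabp7 and S100b had r = 0.63 and rho = 0.62 (exact permutation p = 0.0713, adjusted p = 0.327), 0.85 once genotype means were removed and 0.47 without the 2 libraries farthest in Fabp7. The r of 0.68 between Fabp7 and Frzb (rho = 0.43, exact permutation p = 0.0388, adjusted p = 0.214) fell to 0.08 without the 2 libraries farthest in Fabp7. It was 0.68 once genotype means were removed and 0.64 in the 6 libraries. Frzb had r = 0.81 and rho = 0.88 with Gfap (exact permutation p = 0.00355, adjusted p = 0.0917), and 0.80 without the 2 farthest libraries.

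Npy had r between -0.31 and 0.09 with the other 4 genes. Its relations with Mybpc1 (r = -0.76, exact permutation p = 0.0210, adjusted p = 0.165) and Cdh19 (r = -0.71, exact permutation p = 0.0374, adjusted p = 0.214) were negative, with rho of -0.82 and -0.75 and r of -0.66 and -0.55 without the 2 farthest libraries.

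**Figure D4:**
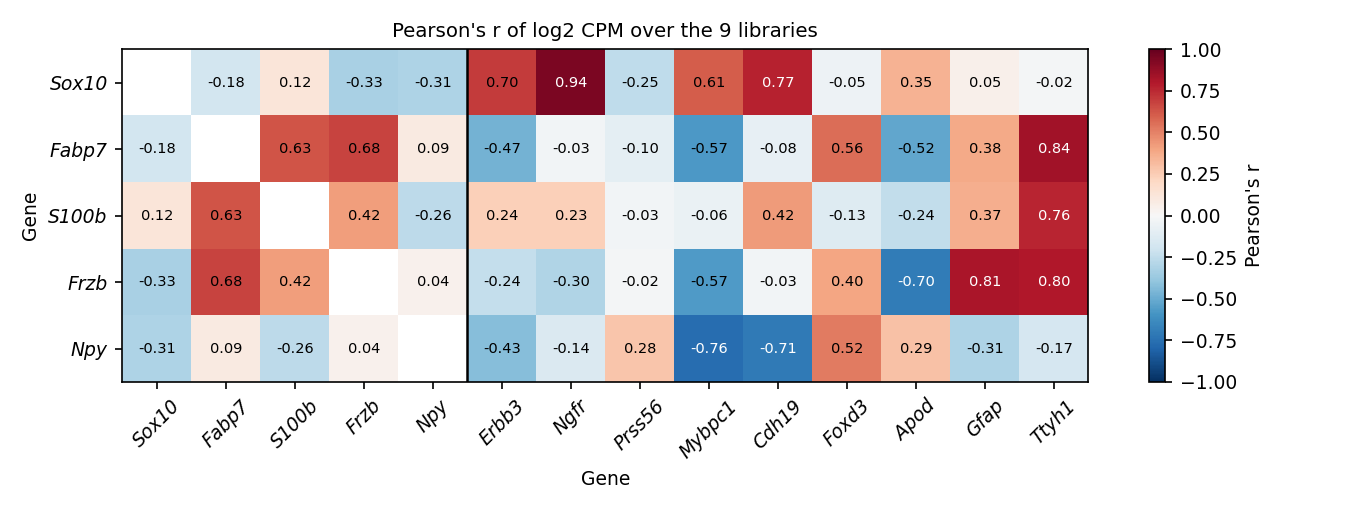
Pearson's r of log2 CPM over the 9 libraries (colour and number) between the 5 ensheathing glia genes (rows) and the same 5 and 9 other glia genes (columns). Sox10 is high with Ngfr (0.94) and Cdh19 (0.77), Fabp7, S100b and Frzb are high with Ttyh1 (0.84, 0.76 and 0.80), and Npy is negative with Mybpc1 (-0.76).

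Pearson's r of log2 CPM over the 9 libraries was taken with 16166 other genes, each with a mean of at least 1 CPM. This left out Prss56, at 0.888 CPM. The 3 genes most like each member have the highest of many values and included none of the other glia genes compared. They were Kif7, Gltscr1l and 6430548M08Rik for Sox10 (each 0.97), and Rbm8a (0.97), Olfr770 (0.95) and Cyb5r4 (0.93) for Fabp7. For S100b they were Sult1b1 (0.94), Olfr166 (0.91) and Pik3ca (0.90), and for Frzb Mir22hg (0.94), Mbd2 (0.94) and Egr3 (0.93). For Npy they were Trpm5 (0.92), Rpl18 (0.92) and Cep152 (0.91).

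Over the 9 libraries, Frzb had r = 0.69 and rho = 0.47 with the vomeronasal receptor level (exact permutation p = 0.0264, adjusted p = 0.132 over the 5 genes), and 0.39 without the 2 libraries farthest in that level. The r of the other 4 genes was -0.28 for Sox10, 0.32 for Fabp7, -0.23 for S100b and 0.05 for Npy. The part of vomeronasal tissue in the values of Frzb was not tested beyond the estimates above.

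Genes of the pathways around the 5 members and markers of other cells, 14 lists in all, gave 0 calls in edgeR in any pair of genotypes. At an unadjusted p under 0.05 the counts were 13 of 101 (12.9%, beside 9.26% of all genes) for homozygous against wild type, 6 of 101 (5.94%, beside 3.25%) for heterozygous against wild type and 10 of 101 (9.90%, beside 10.4%) for homozygous against heterozygous. Of 8 regulators of glial development (Sox2 and Erbb2 had the most reads, with means of 83.0 and 54.4 CPM), 0 were called in any pair, and the nearest relatives of Sox10 were Sox8, at 0.39 ± 0.19 log2 in homozygous against wild-type mice, and Sox9, at 0.05 ± 0.11. Of 12 Wnt antagonists and targets, 0 were called, and 10 of 12 were negative in homozygous against wild-type mice with a median of -0.07, the genes with most reads being Sfrp1 (144 CPM) and Sfrp2 (112 CPM), secreted Wnt binders like Frzb. Their summed level was 493 to 503 CPM in homozygous and 519 to 523 CPM in wild-type libraries, which did not overlap, while the heterozygous libraries at 488 to 534 CPM spanned both. Among single genes, 15.4% had homozygous and wild-type values that did not overlap, and 14.1% homozygous and heterozygous values. Such shares were not counted for sums of several genes, here or for the other lists. Of 7 NPY ligands, receptors and the NPY-cleaving peptidase Dpp4, 5 passed the filter on low counts and 0 were called. Dpp4 averaged 13.5 CPM and the receptor Npy1r 7.72 CPM, whereas the ligand Pyy had 0 reads in every library.

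Of 9 other fatty acid-binding protein genes 6 passed the filter and 0 were called, with Fabp5 at 9.03 CPM and Fabp4 at 1.44 CPM, and Fabp1 at 0 reads in every library. Of 9 genes comprising other S100 genes and the S100 receptor gene Ager, 0 were called. S100a5, a gene of OSNs, averaged 545 CPM and S100a6 113 CPM.

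Markers of other cells that could contribute reads to the 5 genes were measured by the sums of their lists. The 10 myelinating Schwann cell genes had 274 to 288 CPM in wild-type, 284 to 303 in heterozygous and 266 to 293 in homozygous libraries, with Gldn (84.0 CPM) and Mbp (69.8 CPM) the most counted. The 6 melanocyte genes had 14.1 to 16.5, 11.9 to 15.4 and 15.6 to 18.5 CPM, most of it from Mitf (12.8 CPM) ahead of Pmel (1.93 CPM). The homozygous sums lay above the heterozygous ones, with a positive estimate for Mitf and Pmel, whereas Tyr, Dct, Tyrp1 and Mlana, with 14 to 79 reads over the 9 libraries, had negative ones, and the median of the 6 was -0.74. The 6 nasal gland genes had 1266 to 1461, 893 to 1835 and 966 to 1218 CPM, led by Ltf (567 CPM) and Muc5b (416 CPM), with homozygous sums below wild type. The 10 cartilage genes had 492 to 532, 485 to 588 and 489 to 559 CPM, led by Col11a2 (356 CPM) and Col9a2 (61.0 CPM).

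The 5 microvillous cell genes, Itpr3 (49.0 CPM) and Cftr (25.2 CPM) ahead, summed to 120 to 128 CPM in wild-type, 118 to 130 in heterozygous and 110 to 120 in homozygous libraries, with the lowest wild-type and the highest homozygous sum both at 120 CPM. The 7 OSN genes, led by Omp and Gnal (1764 CPM), summed to 7106 to 7180, 7169 to 7655 and 7360 to 7891 CPM, with homozygous sums above wild type. The 5 sustentacular cell genes, led by Sec14l3 (2585 CPM) and Cyp2g1 (2237 CPM), summed to 5229 to 5531, 4888 to 5445 and 5088 to 5443 CPM. The 9 astrocyte and oligodendrocyte genes summed to 689 to 755, 724 to 766 and 699 to 721 CPM, where Aqp4 (417 CPM), Olig2 (109 CPM) and Olig1 are also known in the epithelium. The 5 endothelium and blood genes, led by Pecam1 (28.0 CPM) and Cdh5 (23.4 CPM), summed to 70.8 to 70.9, 68.9 to 76.7 and 60.7 to 65.0 CPM, lowest in homozygous libraries. Hba-a1 and Hbb-bs were listed at 0, so this sum came from Pecam1, Cdh5 and Kdr alone and does not measure blood. Against the sums of these lists, the 5 ensheathing glia genes summed to 215 to 240 CPM in wild-type, 219 to 252 in heterozygous and 213 to 252 in homozygous libraries, which overlapped. The part of these cells in the values of the 5 genes was not tested.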

How the data were processed

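MOE RNA of 9 mice was sequenced from polyA-selected, strand-specific libraries. The authors mapped reads to mm10 and deposited raw counts per gene. Their processing notes name Trimmomatic 0.36, HISAT2 2.1.0, HTSeq 0.6.1p1 and DESeq2 1.20.0, whereas the study names featureCounts, and the annotation and strand setting are not given in the sources used here. A second deposited table holds the same counts divided by size factors and was not used. The 5 rows for unassigned reads did not enter the library sizes, and 57.4 to 60.0% of the reads accounted for were in genes.

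Genotypes were taken from sample titles. Genes with at least 10 reads over the 9 libraries were fitted by genotype in edgeR 4.0.16 (R 4.3.3) with TMM normalization and the quasi-likelihood test, and p-values were adjusted over all 20213 genes (Benjamini-Hochberg, threshold 0.05). The test was checked on simulated counts. CPM used TMM-scaled library sizes. SEs and 95% intervals came from the F statistic. Within-genotype SDs and correlations used log2 CPM with 0.5 reads added. Correlations were tested with exact two-sided permutations, adjusted by Benjamini-Hochberg within their family. Replicate libraries differed beyond counting error (chi-square per degree of freedom at least 4.34). Each library is 1 mouse, and p-values measure the spread between these mice.

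Named were the 5 genes, the 9 other glia genes, from each other list the called genes or else the 2 with the highest mean CPM, and the 3 genes most correlated with each member. 1 further glia gene is not reported here. Other genes of the lists were named after their values were seen. The members and lists were chosen with earlier results of these data known. DESeq2 1.42.0, size factors of DESeq2, other filters, pairwise fits, a replicate block, vomeronasal receptor expression and left-out libraries were the alternatives.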

Additional observations from a re-analysis of the deposited data

How the results depend on the processing

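The count of ensheathing glia genes called was 0 of 5 under 18 alternatives for each pair of genotypes and under 17 for any difference among the 3. Of 270 refitted log2 fold changes, 240 kept their direction and 30 changed it, none of them past the threshold (lowest adjusted p 0.339, with 3 values left NA by DESeq2). Correlations of deviations between mice of the same replicate number ran from -0.21 to 0.092 (9 pairs). Between mice of unlike numbers they ran from -0.19 to 0.20. The study describes the genotypes as littermates, but the labels name no litter, so a pairing by litter cannot be judged here. With the replicate block 0 of the 5 genes was called.

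Without the 3 libraries rich in vomeronasal receptor reads (3 wild-type, 2 heterozygous and 1 homozygous mouse left), homozygous against wild-type mice gave -0.078 for Fabp7, -0.24 for Frzb and -0.20 for Npy, and homozygous against heterozygous mice -0.15, -0.28 and -0.013. With vomeronasal receptor expression as a covariate, Frzb was -0.18 against wild type and -0.14 against heterozygous mice, Npy was -0.0022 against wild type, and heterozygous against wild-type mice gave -0.0028 for Fabp7 and -0.041 for Frzb. S100b in heterozygous against wild-type mice was -5.9e-05 with DESeq2 size factors, -0.00016 with DESeq2 under either filter and -0.0019 with filterByExpr. Leaving out 1 library at a time, S100b there ranged from -0.052 to 0.060, Sox10 from -0.0040 to 0.10 and Fabp7 from -0.085 to 0.074. For homozygous against wild-type mice the ranges were -0.0072 to 0.15 for Fabp7, -0.088 to 0.23 for Frzb and -0.19 to 0.15 for Npy, and for homozygous against heterozygous mice -0.022 to 0.17 for Fabp7 and -0.16 to 0.16 for Frzb. The estimates that kept their direction without any 1 library ranged from -0.13 to -0.025 for Sox10 and from -0.12 to -0.011 for S100b (nearest 0 without wild-type replicate 2) in homozygous against wild-type mice. They ranged from 0.032 to 0.13 for Frzb and from -0.38 to -0.11 for Npy in heterozygous against wild-type mice, and from -0.16 to -0.083 for Sox10, from -0.12 to -0.020 for S100b and from 0.040 (without homozygous replicate 3) to 0.40 for Npy in homozygous against heterozygous mice. The cause was not tested.

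The number of all genes called depended on the processing: 10 genes for homozygous against wild type ranged from 7 to 63, 1 gene for heterozygous against wild type from 0 to 3, 23 genes for homozygous against heterozygous from 6 to 190 and 13 genes for any difference from 7 to 123. Among the other lists, Dmbt1 was called for homozygous against wild type with only the 6 libraries compared (-0.60), and Ltf (-0.89) and Itpr3 (-0.32) for homozygous against heterozygous without heterozygous replicate 3. Npy had the fewest reads of the 5 genes, 87 to 147 per library.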

Other observations

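Aqp4, a water channel of sustentacular and gland cells as well as of astrocytes, was called by DESeq2 between homozygous and heterozygous mice (adjusted p = 0.0211 with its default filter and 0.0307 without) but not by edgeR. In edgeR it was -0.17 ± 0.05 log2 (adjusted p = 0.215), with a mean level of 417 CPM.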
